A study of Rattus norvegicus with 3 samples.

Results

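Protein phosphatase genes were compared between kidney inner medulla of rats given lithium for 1 month and that of control rats. The set holds every gene with 1 symbol in the array annotation whose symbol begins with Ppp, Ppm1, Ptpn, Ptpr, Ptp4a or Dusp, which gave 64 of 4390 named genes and 77 of 5760 probes. Of these, 30 were assigned by prefix to the serine-threonine class (Ppp and Ppm1), 28 to the tyrosine class (Ptpn, Ptpr and Ptp4a) and 6 to the dual-specificity class (Dusp). Each of 3 dual-colour arrays held lithium RNA in the red channel and control RNA in the green channel. Arrays 1 and 2 held pooled RNA of 2 rats per channel and array 3 RNA of 1 rat per channel. The sources used here do not name the strain, age, sex or lithium dose of the rats.

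Protein phosphatases remove the phosphate groups that kinases add. Most serine-threonine phosphatases are assembled from a small number of catalytic subunits, which bind many regulatory and inhibitory subunits that set their location and substrates. Tyrosine phosphatases carry their own targeting domains and are either transmembrane receptors or intracellular enzymes. Dual-specificity phosphatases act on tyrosine and on serine or threonine, and many of them switch off MAP kinases. In the collecting duct, vasopressin acts through cAMP and protein kinase A to phosphorylate the water channel aquaporin-2, and phosphatases oppose such steps.

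Each probe had 1 log ratio per array, and since the logarithm's base is unknown, folds are given for base 10 and for base 2. A value above 0 was read as higher with lithium, which is likely from the dye labels, but the table did not state its direction. Aqp2, whose abundance lithium is known to lower, read 0.11, 0.26 and 0.14 on arrays 1, 2 and 3, which leaves the direction of all ratios in doubt. If it were turned, every sign below would turn with it. Every array had the same dye orientation, so dye and treatment cannot be told apart. In whole tissue, fewer cells of a type and less RNA per cell cannot be told apart either. Ratios do not show how strongly a gene is expressed, so the tissue could not be checked from them. Having a value is no check either, since 3 of 4 listed proximal tubule markers were also measured on every array. All 8 listed markers of collecting duct principal cells were measured on every array, and their means ran from 0.0067 to 0.49 with array medians of 0.10, 0.13 and 0.16. The part of these markers in the phosphatase ratios was not tested.

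Of the 64 genes, 54 were measured on all 3 arrays and tested, 8 on 2 arrays, 1 on 1 array and 1 on none. Empty probes on array 3 made up 11.8% of the 34 serine-threonine probes and 24.3% of the 37 tyrosine probes, against 25.6% of all 5760 probes. Each array was centred on the median of its probes and probes of 1 gene were averaged. After centring, all probes empty on array 3 had medians of −0.08 and −0.18 on arrays 1 and 2. Those with a value there had 0.01 and 0.04. For phosphatase probes these medians were −0.01 and −0.14, against 0.02 and 0.03.

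Serine-threonine and tyrosine phosphatase genes had the same median ratio. The median over 26 serine-threonine genes was 0.0183 and that over 23 tyrosine genes was 0.0183, beside 0.0133 over all 3819 features tested. On arrays 1, 2 and 3 the serine-threonine median was 0.02, 0.01 and 0.03. The tyrosine median was 0.03, 0.03 and 0.00. The serine-threonine class was thus lower on arrays 1 and 2 and higher on array 3, with a mean difference of 0.00 ± 0.03 (SD, n = 3). The 5 dual-specificity genes had medians of 0.03, 0.11 and 0.07. In the serine-threonine class 18 genes lay above 0 and 8 below, and in the tyrosine class 14 lay above, 8 below and 1 at 0. Over all 54 genes, 35 lay above 0 and 18 below (64.8% above), where 55.7% of all features lay above and 42.7% below. These splits rest on the centring and on keeping only features measured on all 3 arrays. Among features measured on at least 2 arrays, 38 of 62 phosphatase genes lay above 0 and 23 below. That was 61.3% above, against 47.1% of all features. The serine-threonine split there was 20 above and 9 below, and the tyrosine split 15 and 11. Without centring, 25 of the 54 lay above 0 and 27 below (46.3% above, against 45.2% of all features). These were 12 and 13 of the serine-threonine and 10 and 12 of the tyrosine genes. Centred on the features measured on every array, 28 of the 54 lay above and 24 below (51.9% above, against 46.9% of all features). The serine-threonine genes then split 13 and 11 and the tyrosine genes 12 and 11. The median SD between arrays was 0.09 in the tyrosine class, 0.05 in the serine-threonine class and 0.07 over all features. Within the tyrosine class it was 0.11 over 9 non-receptor, 0.07 over 12 receptor and 0.08 over 2 Ptp4a genes. Within the serine-threonine class it was 0.04 over 12 catalytic and 0.07 over 14 regulatory genes. The spread between classes was not tested.

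**Figure D1:**
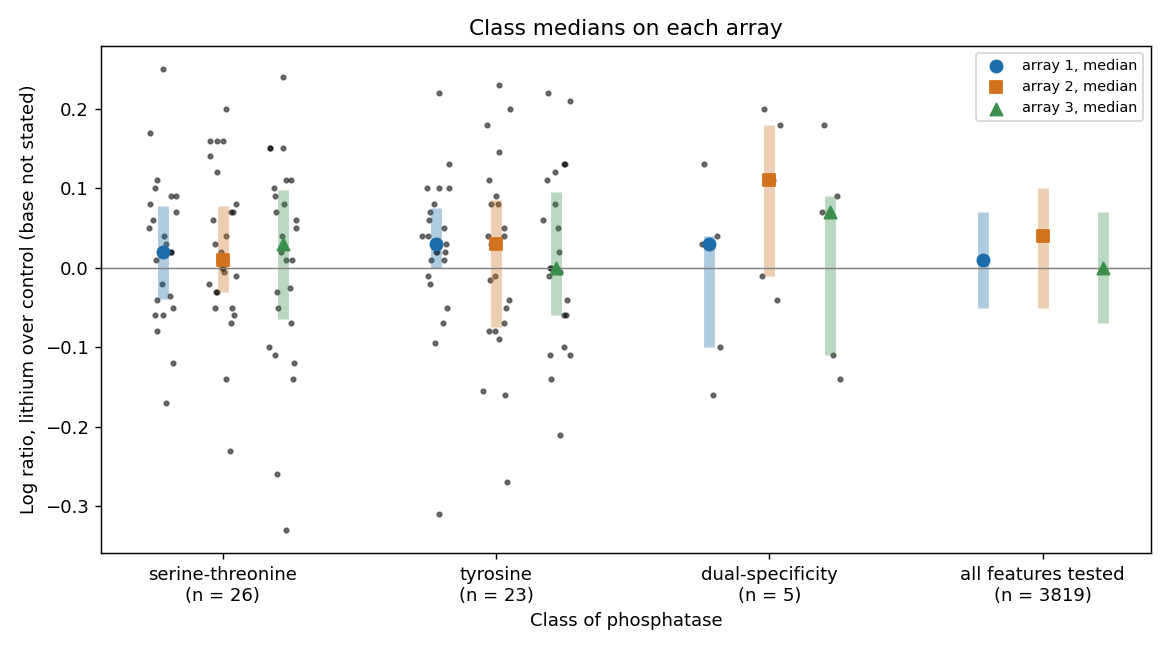
Log ratio of lithium over control (vertical axis, base not stated) by phosphatase class on each of 3 arrays. Black points are genes, coloured symbols are medians and pale bars run from the lower to the upper quartile. The serine-threonine and tyrosine medians lie between 0.00 and 0.03 on every array, beside 0.00 to 0.04 for all 3819 features.

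No phosphatase gene passed a limma adjusted p of 0.05, where 0.445% of all features did. At an unadjusted p of 0.05, limma gave 9 of 54 phosphatase genes, or 16.7%, against 17.2% of all features, so their share lay at the background. Of the 9, 6 were higher (Ppp1cc, Ppp3cb, Ppp1r10, Ptprf, Ptpn12 and Dusp12), against a background of 9.71%. The other 3 were lower (Ppp1r1a, Ppp2cb and Ptpn7), against a background of 7.52%. Without array 1 the number with an unadjusted limma p under 0.05 was 4, or 7.41%, against 4.5% of all features. The same sign on all 3 arrays was found for 23 genes, or 42.6%, against 38.7% of all features. Of these, 15 were higher, against a background of 24.1%, and 8 lower, against a background of 14.6%.

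**Figure D2:**
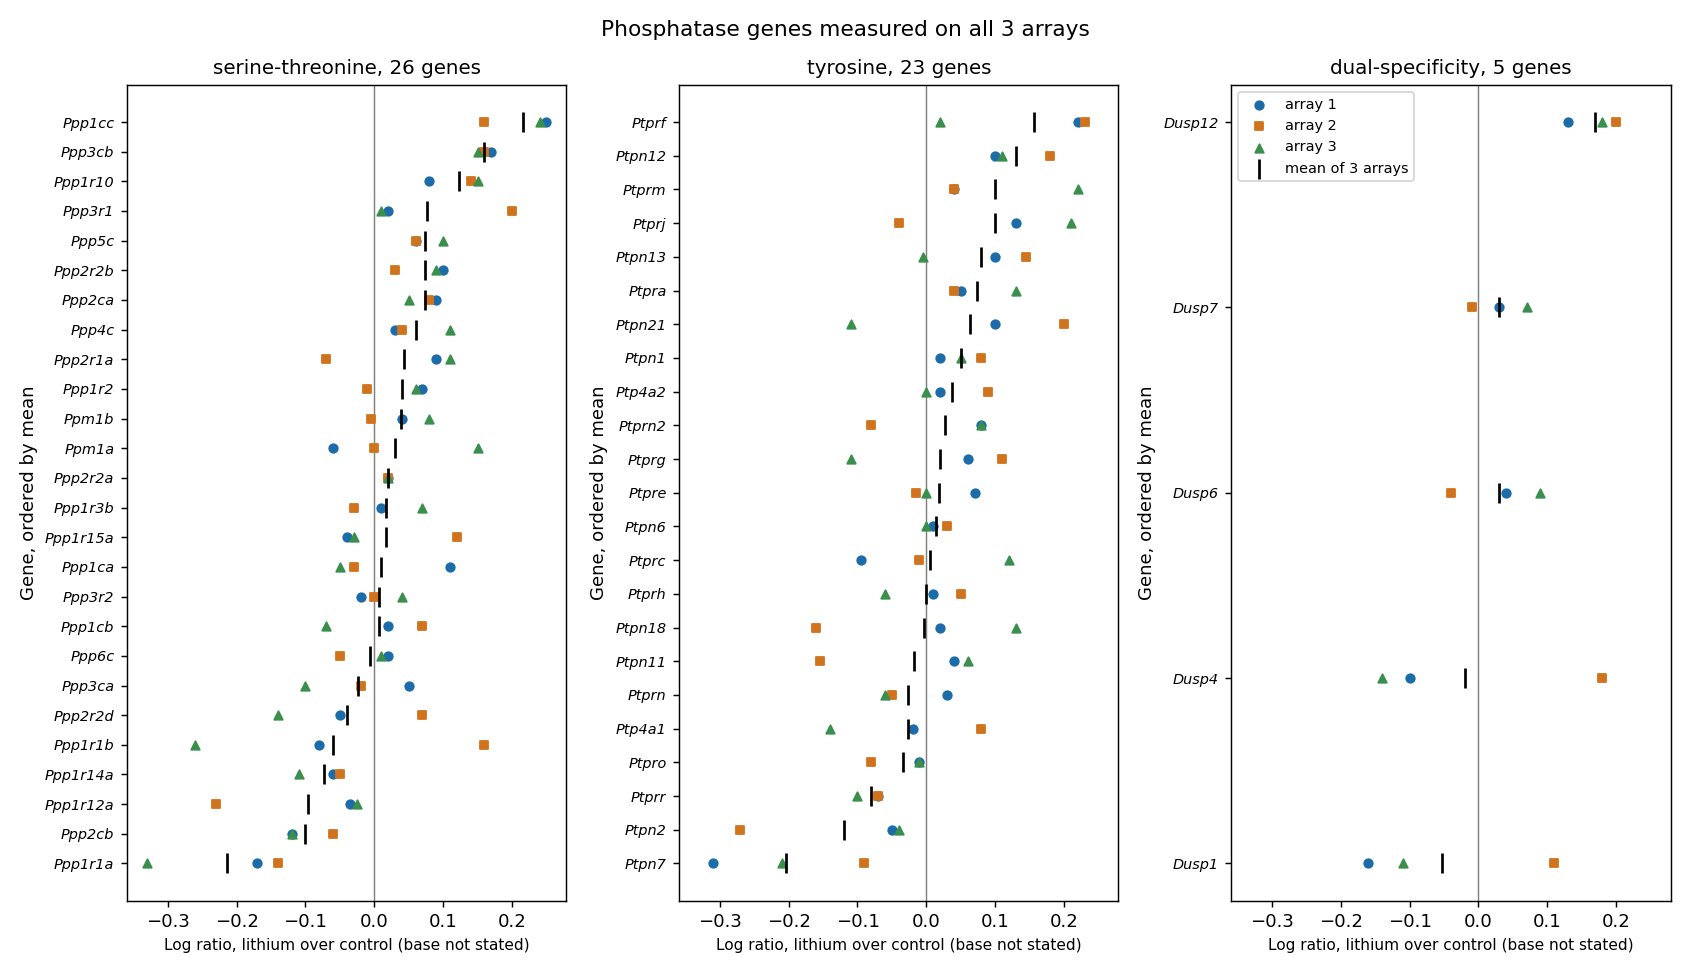
Log ratio of lithium over control (horizontal axis, base not stated) of the 54 phosphatase genes measured on all 3 arrays, ordered by mean within each class. Coloured symbols are the 3 arrays and black bars their mean. Ppp1cc, Ppp3cb and Dusp12 lie to the right of 0 on every array, and Ppp1r1a and Ptpn7 to the left.

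Among the catalytic subunits of protein phosphatase 1, the enzyme that reverses many protein kinase A phosphorylations, the gamma isoform gene Ppp1cc stood apart from its paralogues. Ppp1cc read 0.25, 0.16 and 0.24 on arrays 1, 2 and 3, the highest mean of all 54 genes. All 3 values lay above 0 and above those of both other isoforms. Its mean was 0.22 ± 0.05 (SD, n = 3) with a 95% interval from 0.12 to 0.31 and a limma adjusted p of 0.0918. In base 10 this would be a fold of 1.65, and in base 2 one of 1.16. The alpha isoform gene Ppp1ca read 0.11, −0.03 and −0.05, and the beta isoform gene Ppp1cb 0.02, 0.07 and −0.07. Neither held its sign across arrays, and their means were 0.01 ± 0.09 and 0.0067 ± 0.07. Without centring both means were below 0. Within arrays, Ppp1cc exceeded Ppp1ca by 0.14, 0.19 and 0.29 and Ppp1cb by 0.23, 0.09 and 0.31. The 250 bases before the annotated start of Ppp1cc (chr12:40061302-40061551, minus strand, GRCr8, from RefSeq) are shown because this gene had the highest mean. Capitals mark matches to the GC box GGGCGG on either strand, of which there were 4. No match to CCAAT on either strand was found there.
Ppp1cc: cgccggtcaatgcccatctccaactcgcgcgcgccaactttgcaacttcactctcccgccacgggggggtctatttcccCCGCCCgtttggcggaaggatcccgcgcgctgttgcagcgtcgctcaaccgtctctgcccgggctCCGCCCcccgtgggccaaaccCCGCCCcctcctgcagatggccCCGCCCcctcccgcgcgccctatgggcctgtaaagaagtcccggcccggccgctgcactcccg

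The catalytic subunit genes of protein phosphatase 2A, a heterotrimer with broad substrate range, lay on opposite sides of 0. Ppp2ca, the alpha isoform, read 0.09, 0.08 and 0.05, and Ppp2cb, the beta isoform, read −0.12, −0.06 and −0.12. Their values did not overlap, and the difference was 0.21, 0.14 and 0.17 on the 3 arrays, a mean of 0.17 ± 0.04 (SD, n = 3). Ppp2cb had an unadjusted limma p of 0.0393 and an adjusted p of 0.26, and Ppp2ca an adjusted p of 0.381. Calcineurin, the calcium-dependent phosphatase that activates NFAT factors, gave a like gap between isoforms. Its beta catalytic gene Ppp3cb read 0.17, 0.16 and 0.15, the narrowest spread among the genes with an unadjusted limma p of 0.05. Its mean was 0.16 ± 0.01 (SD, n = 3, limma adjusted p = 0.136), a fold of 1.45 for base 10 and of 1.12 for base 2. The alpha gene Ppp3ca read 0.05, −0.02 and −0.10 and was below Ppp3cb on every array, by 0.18 ± 0.07 on average.

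Over 5 isoform pairs (3 of protein phosphatase 1, 1 of protein phosphatase 2A, 1 of calcineurin), a two-sided exact permutation test that turns the sign of each array gave p = 0.25 for 4 pairs and 1.0 for Ppp1ca against Ppp1cb. Adjusted over the 5 pairs, these were 0.312 and 1.0. With 3 arrays the test cannot go below 0.25. With block-wise centring the 4 mean differences were between 0.155 (Ppp1cc over Ppp1ca) and 0.197 (Ppp3cb over Ppp3ca). These isoforms are close in sequence, so a probe can also bind the transcript of another isoform and the assignment is uncertain.

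**Figure D3:**
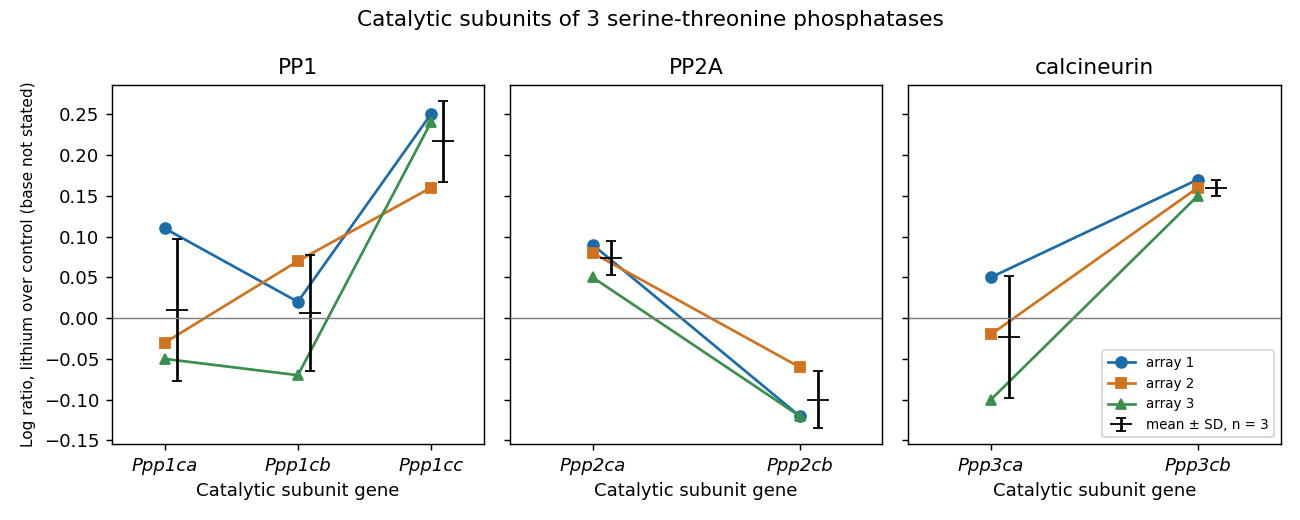
Log ratio of lithium over control (vertical axis, base not stated) of the catalytic subunit genes of protein phosphatase 1 (PP1), protein phosphatase 2A (PP2A) and calcineurin. Symbols joined by lines are 1 array each and black bars are the mean ± SD of 3 arrays. Ppp1cc lies above its paralogues, Ppp2ca above Ppp2cb and Ppp3cb above Ppp3ca on every array.

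The other serine-threonine catalytic genes had small ratios. Ppp5c, a phosphatase with a chaperone-binding domain, read 0.06, 0.06 and 0.10. Ppp4c, a relative of protein phosphatase 2A, read 0.03, 0.04 and 0.11. Both were above 0 on every array, with limma adjusted p-values of 0.381 and 0.483. Ppp6c, another relative, read 0.02, −0.05 and 0.01. The metal-dependent phosphatases Ppm1a and Ppm1b read −0.06, 0.00 and 0.15, and 0.04, −0.005 and 0.08. Neither held 1 sign across arrays. Ppm1f, which acts on calmodulin-dependent kinase II, read 0.05 and −0.03 on arrays 1 and 2 and was empty on array 3. The median over the 12 catalytic genes was 0.03, and over the 14 regulatory genes 0.02.

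Regulators of protein phosphatase 1 held both the lowest serine-threonine gene among those measured on all 3 arrays and one of the highest. Ppp1r1a, inhibitor-1, blocks protein phosphatase 1 once protein kinase A has phosphorylated it, and it read −0.17, −0.14 and −0.33. All 3 values were below 0, with a mean of −0.21 ± 0.10 (SD, n = 3, limma adjusted p = 0.134), which would be 0.612 of control for base 10 and 0.863 for base 2. Its relative Ppp1r1b, known as a dopamine-regulated inhibitor in neurons, read −0.08, 0.16 and −0.26 and did not hold its sign. Ppp1r2, inhibitor-2, read 0.07, −0.01 and 0.06. Ppp1r14a, an inhibitor of myosin phosphatase, read −0.06, −0.05 and −0.11, and Ppp1r12a, the targeting subunit of that enzyme, −0.035, −0.23 and −0.025. Both were below 0 on every array and neither passed, with a limma adjusted p of 0.383 each. The low value of Ppp1r12a on array 2 came from 1 of its 2 probes. On array 3 that probe read 0.03 and the other −0.08. Ppp1r10, a nuclear targeting subunit, read 0.08, 0.14 and 0.15, a mean of 0.12 ± 0.04 (SD, n = 3, limma adjusted p = 0.194). Ppp1r15a, the stress-induced subunit that directs the enzyme to the translation factor eIF2 alpha, read −0.04, 0.12 and −0.03. Ppp1r3b, a glycogen-targeting subunit, read 0.01, −0.03 and 0.07.

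Among subunits that assemble protein phosphatase 2A and calcineurin, the 6 tested genes had means from −0.04 to 0.08. The scaffold gene Ppp2r1a read 0.09, −0.07 and 0.11. Among the B regulatory genes, Ppp2r2a read 0.02 on each array and Ppp2r2b read 0.10, 0.03 and 0.09. Ppp2r2d read −0.05, 0.07 and −0.14, so it changed sign where both other B genes did not. The calcium-binding calcineurin subunit gene Ppp3r1 read 0.02, 0.20 and 0.01, and its testis-associated relative Ppp3r2 −0.02, 0.00 and 0.04. None had a limma adjusted p under 0.387. Ppp1r9b and Ppp1r9a, which anchor protein phosphatase 1 to actin, read −0.05 and −0.23, and 0.02 and −0.01, on arrays 1 and 2 only. Ppp2r2c, another B regulatory gene, had a value on array 2 alone, −0.38. This single value lies farther from 0 than the mean of any other phosphatase gene. Array 2 had the widest spread of the 3 arrays (SD of deposited values 0.20), and all probes empty on array 3 had a median of −0.18 there.

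Among tyrosine phosphatases inside the cell, Ptpn7 had the lowest ratio. Ptpn7, a MAP kinase phosphatase best known from lymphocytes, read −0.31, −0.09 and −0.21, a mean of −0.20 ± 0.11 (SD, n = 3, limma adjusted p = 0.142). All 3 values were below 0, and the mean would be 0.626 of control for base 10 and 0.869 for base 2. Of 19 listed leukocyte markers 13 were tested, and 8 of these were above 0 and 4 below. Their means ran from −0.39 to 0.16, and their array medians were −0.01, 0.00 and 0.05. The part of leukocyte markers in the Ptpn7 ratio was not tested. The 250 bases before the start of Ptpn7 (chr13:49123308-49123557, plus strand, GRCr8, from RefSeq) are shown because it had the lowest mean of the tested tyrosine genes. Capitals mark the only match to GGGCGG on either strand, and no CCAAT was found.
Ptpn7: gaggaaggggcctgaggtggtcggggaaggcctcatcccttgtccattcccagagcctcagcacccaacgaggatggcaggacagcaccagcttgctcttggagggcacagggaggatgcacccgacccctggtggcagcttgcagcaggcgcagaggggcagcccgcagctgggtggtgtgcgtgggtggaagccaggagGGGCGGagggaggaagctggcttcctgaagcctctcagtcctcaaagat

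Ptpn12, which acts on focal adhesion proteins, read 0.10, 0.18 and 0.11, a mean of 0.13 ± 0.04 (SD, n = 3, limma adjusted p = 0.183). It was above 0 on every array. Ptpn2, which acts on JAK kinases, read −0.05, −0.27 and −0.04, with a mean of −0.12 ± 0.13 (limma adjusted p = 0.321). Its second probe was empty on array 3, and with the first probe alone the mean was −0.14. Ptpn1, the endoplasmic reticulum enzyme that acts on the insulin receptor, read 0.02, 0.08 and 0.05. Ptpn6, of blood cells, read 0.01, 0.03 and 0.00, and Ptpn11, which relays growth factor signals, read 0.04, −0.155 and 0.06. The remaining intracellular genes gave means of 0.08 for Ptpn13, 0.06 for Ptpn21 and −0.0033 for Ptpn18, and none of them held 1 sign. Ptpn5, a brain phosphatase, read −0.15 and 0.02 on 2 arrays. Ptp4a1 and Ptp4a2, small prenylated phosphatases, had means of −0.03 and 0.04 and did not hold 1 sign either.

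Of the receptor tyrosine phosphatases tested, Ptprf had the highest mean. Ptprf, of the LAR type, read 0.22, 0.23 and 0.02, a mean of 0.16 ± 0.12 (SD, n = 3, limma adjusted p = 0.207). Arrays 1 and 2 were high and array 3 was near 0. Ptprm, which binds itself between neighbouring cells, read 0.04, 0.04 and 0.22, so that here array 3 alone was high (mean 0.10 ± 0.10, limma adjusted p = 0.353). Ptpru, a receptor of the same type, read −0.17 and −0.14 on arrays 1 and 2 and was empty on array 3. Ptprj, a receptor phosphatase of epithelium and blood cells, read 0.13, −0.04 and 0.21. Ptpra, an activator of Src kinases, read 0.05, 0.04 and 0.13 and was above 0 on every array (limma adjusted p = 0.397). Ptprr, which acts on MAP kinases as Ptpn7 does, read −0.07, −0.07 and −0.10, a mean of −0.08 ± 0.02 (SD, n = 3, limma adjusted p = 0.344). It was the only one of the 12 tested receptor genes, besides Ptpro, below 0 on every array.

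Some receptor genes are known as markers of other cells. Ptprc, the common leukocyte antigen, read −0.095, −0.01 and 0.12, with a mean of 0.005 ± 0.11 (SD, n = 3). One of its probes was empty on array 3, and the mean of the other was 0.06. Ptpro, known from podocytes, read −0.01, −0.08 and −0.01. This average of 3 probes was below 0 on every array, but 1 of the probes read 0.00, 0.03 and 0.02. Another probe of Ptpro was empty on array 3, and without that probe the mean was −0.015. Of 5 listed podocyte markers 2 were tested, Podxl with a mean of −0.12 and Wt1 with one of 0.02. On arrays 1 and 2 only, Nphs1 read −0.02 and −0.13 and Synpo −0.05 and −0.16. Thus 3 of the 4 measured markers had means below 0. So did 42.7% of the features measured on all 3 arrays, and 2539 of the 4930 measured on at least 2. Nphs1 and Synpo were empty on array 3, and all probes empty there had medians of −0.08 and −0.18 on arrays 1 and 2. The part of podocyte markers in the Ptpro ratio was not tested. Ptprn and Ptprn2, secretory granule proteins without phosphatase activity on proteins, had means of −0.03 and 0.03. Ptprg, Ptpre and Ptprh lay between 0.00 and 0.02. On arrays 1 and 2 only, Ptprv read 0.02 and −0.08, and Ptprq −0.02 and 0.13. Ptprz1 had no value on any array.

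Dual-specificity genes were led by Dusp12, an atypical member with a zinc-binding domain. Dusp12 read 0.13, 0.20 and 0.18, a mean of 0.17 ± 0.04 (SD, n = 3, limma adjusted p = 0.134), a fold of 1.48 for base 10 and of 1.13 for base 2. Its 3 values lay above 0. The nuclear MAP kinase phosphatase genes Dusp1 and Dusp4, both induced by growth signals, read −0.16, 0.11 and −0.11, and −0.10, 0.18 and −0.14. Both were below 0 on arrays 1 and 3 and above 0 on array 2. Dusp6 and Dusp7, cytoplasmic phosphatases of ERK kinases, ran the other way, at 0.04, −0.04 and 0.09 for Dusp6 and 0.03, −0.01 and 0.07 for Dusp7. Dusp5, a nuclear ERK phosphatase, read 0.02 and −0.22 on arrays 1 and 2.

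Other genes of the pathway were as sparse in calls. Of 5 tested phosphatases outside these prefixes none passed a limma adjusted p of 0.05 or an unadjusted p of 0.05. Of all features, 0.445% passed the first and 17.2% the second. The means of the 5 ran from −0.08 to 0.03. Of 13 tested regulators and anchors none passed, and 1 had an unadjusted limma p under 0.05, against the same 17.2% of all features. That was Calm3, a gene for the calcium sensor calmodulin, which activates calcineurin, at −0.01, −0.16 and −0.33. The 1 calcineurin target tested, Mef2d, had a mean of 0.06. Of 5 tested MAP kinases, the substrates of many Dusp enzymes, none passed and 2 were lower at an unadjusted limma p of 0.05, where 7.52% of all features were. Mapk9, a JNK kinase gene, read −0.155, −0.245 and −0.12 (limma adjusted p = 0.14), and Mapk14, a p38 kinase gene, −0.14, −0.165 and −0.05 (limma adjusted p = 0.229). Both were below 0 on all 3 arrays. On arrays 1 and 2 only, Mapk6 read −0.34 and −0.23, Mapk12 0.00 and −0.06, and Mapk13 0.22 and −0.14.

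Probes of the same gene often disagreed. Of 10 genes with more than 1 probe, the 5 with the widest gaps between probes had them on array 2. The 4 probes of Ptpre read from −0.28 to 0.21 on array 2, and those of Ptpn11 read −0.37 and 0.06. Those of Ppp1r12a read −0.43 and −0.03. The median of the widest gaps was 0.18, close to the largest gene means, while 54 of the 64 genes rest on 1 probe. Gaps of Ptpn2 and Ptpn13 were smaller, at 0.08 and 0.09. Over the 54 genes, Pearson's r was 0.64 between arrays 1 and 3, 0.375 between arrays 1 and 2 and 0.0956 between arrays 2 and 3. Over all 3819 features it was 0.481, 0.465 and 0.157. These are correlations across genes, which are not independent replicates.

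**Figure D4:**
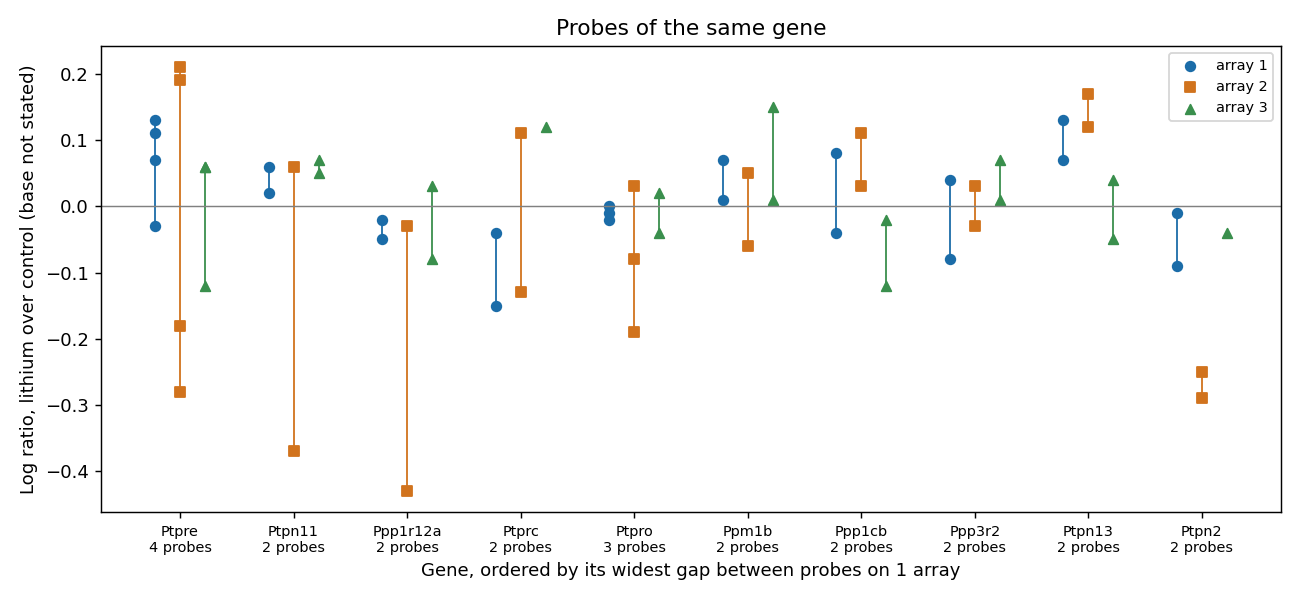
Log ratio of lithium over control (vertical axis, base not stated) of every probe of the 10 phosphatase genes with more than 1 probe. Symbols are probes, coloured by array, and lines join the lowest and highest probe of a gene on 1 array. The widest gaps, for Ptpre, Ptpn11 and Ppp1r12a, are on array 2 and run from 0.4 to 0.49.

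The promoters of these genes were compared with those of all genes, since cAMP acts on transcription through a palindromic element, TGACGTCA. Windows from 250 before to 50 after the annotated start (RefSeq, GRCr8), were found for 55 of the 64 genes. Their median GC content was 68.0%, against 59.7% for 3560 named genes of the array and 52.3% for 27457 genes. The observed over expected number of CpG sites had a median of 0.939 in the serine-threonine class, 0.741 in the tyrosine class and 0.656 in named genes of the array. GGGCGG on either strand was found in 67.3% of phosphatase windows and 54.8% of those of named genes, and CCAAT on either strand in 29.1% and 39.2%. TATAAA on either strand was found in 5.45% and 12.6%. The element TGACGTCA, which is its own reverse complement, was found in 5 windows, or 9.09%, against 2.02% for named genes of the array and 2.00% for all genes. TGACGTCA holds a CpG, and these backgrounds were not matched for the higher GC and CpG content of the phosphatase windows. A match is a description of the letters and not evidence of a site. The 5 are shown with 20 bases on each side, in the gene's direction, with the element in capitals. Ppp1r15a is at chr1:105139635-105139682, minus strand, Ppp2ca at chr10:36858964-36859011, plus strand, and Ppp2r2d at chr1:203095497-203095544, plus strand. Ptpru is at chr5:149308854-149308901, minus strand, and Dusp1 at chr10:17184709-17184756, plus strand.
Ppp1r15a: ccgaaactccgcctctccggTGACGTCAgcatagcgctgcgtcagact
Ppp2ca: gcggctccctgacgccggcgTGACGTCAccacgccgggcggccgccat
Ppp2r2d: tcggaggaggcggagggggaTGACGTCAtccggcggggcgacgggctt
Ptpru: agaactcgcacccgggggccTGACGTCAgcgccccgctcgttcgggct
Dusp1: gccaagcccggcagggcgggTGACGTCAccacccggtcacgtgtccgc
The expression of the 5 had no common direction: their mean ratios were 0.02, 0.07, −0.04, −0.155 (2 arrays) and −0.05 in the order shown.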

How the data were processed

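RNA of rat kidney inner medulla was compared on 3 dual-colour arrays. The deposited values were log ratios of base not stated, 1 per probe and array, in a table of the authors' processed values. Their scale, centring and direction were not stated, and the deposited column medians were −0.02, −0.04 and 0.00. Scanner, background correction and normalization are not named in the sources used here, and no intensities were used. Precision is limited by having 3 arrays. The 3 arrays hold different rats or pools. The limma p-values rest on a gene's spread between them, moderated with the spread of all features tested.

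Probes were named from the platform's public annotation: 5064 had 1 symbol, 9 several and 687 were not listed. All 64 phosphatase symbols matched a current rat gene table (GRCr8). Each array was centred on its median, probes were averaged by gene ID, and the 3819 features measured on all arrays were fitted with limma 3.58.1 in R 4.3.3 (intercept only, eBayes, Benjamini-Hochberg, two-sided, 0.05). The fit was tested on simulated ratios drawn from its own fitted model, without dye effects, empty probes or arrays of unequal spread. Class medians carry no test.

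The members and gene lists were chosen with earlier results of these data known. The rule for genes with values per array took unadjusted p under 0.05 with 1 sign, the 3 highest and lowest means per class, the serine-threonine catalytic genes and 10 set genes; further members were added after their values were seen, as were the motifs and the printed promoters. Marker lists of endothelium, proximal tubule and thick limb had 4, 3 and 2 tested genes with median ratios of 0.02, 0.16 and 0.01. The 2 thick limb genes lay on opposite sides of 0, Umod with a mean of −0.18 and Kcnj1 with one of 0.20. The 3 tested proximal tubule genes had means from 0.08 to 0.20, while Cubn read −0.22 and −0.36 on arrays 1 and 2 only. Alternatives were other centrings, equal spread, 2 arrays, single probes, array weights, another prior or threshold, other class definitions and each array left out. Python 3.11.15, pandas 2.3.3 and matplotlib 3.10.9 joined tables and drew figures.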

Additional observations from a re-analysis of the deposited data

How the results depend on the processing

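The difference between the serine-threonine and tyrosine medians stayed within 1 SD of its 3 array values under all 15 alternatives, from −0.013 to 0.02. The serine-threonine median was 0.0342 over catalytic subunits only, 0.0017 when centred on the features measured on all arrays and −0.0017 without centring. The tyrosine median was −0.0017 without centring, and from 0.00 to 0.03 with 1 array left out. At a limma adjusted p of 0.10, 1 phosphatase gene passed (Ppp1cc). The share of all features at 0.10 is not given here, so this count has no background. At 0.05, 1 passed with array spreads made equal (Ppp1cc, where 2.57% of all features passed). A robust prior gave 2 (Ppp1cc and Ppp1r1a, 2.46% of all features), and array weights 14 (25.9%, against 27.6% of all features). Array weights gave array 1 a weight of 4.52 against 0.371 and 0.596, so that fit rests mostly on 1 array. With 1 array left out, limma called 0 phosphatase genes and 0 features in all. The number with an unadjusted p under 0.05 was 23 with array weights (42.6%, against 41.6% of all features). With 1 array left out it ran from 4 without array 1 (7.41%, against 4.5%) to 13 without array 2 (24.1%, against 15.9%).

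Of the named genes, those with means near 0 turned sign, none of them past the threshold. Without centring Ppp1ca was at −0.01, Ppp1cb at −0.0133, Ptpn6 at −0.0067 and Ptprc at −0.015. Centred on features measured on all arrays they were at −0.0067, −0.01, −0.0033 and −0.0117. Block-wise centring gave Dusp7 −0.0033, Ppp1cb −0.0067, Ppp6c 0.0233 and Ptpn6 −0.0033, and equal spread gave Ppp1cb −0.00037. With array weights Ppm1a was at −0.0332, Ppp3ca at 0.029, Ppp6c at 0.0142, Ptpn11 at 0.029 and Ptprc at −0.0659. With 1 array left out, Dusp4 ran from −0.12 to 0.04, Ppm1a from −0.03 to 0.075, Ppp1ca from −0.04 to 0.04, Ppp1cb from −0.025 to 0.045, Ppp3ca from −0.06 to 0.015, Ppp6c from −0.02 to 0.015, Ptpn11 from −0.0575 to 0.05 and Ptprc from −0.0525 to 0.055. The cause of these turns was not tested. Lithium and control were paired within each array, and the fit of their log ratios used that pairing. The 3 arrays form 1 group, so no further pairing was possible.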
